A study of Mus musculus with 8 samples.

Results

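The sirtuins and the enzymes of NAD salvage were examined in whole brain of mice that lack SIRT1 in the brain (BSKO, brain specific knockout) and of their wild-type littermates (WT). The members were taken by gene name: Sirt1, Sirt2, Sirt3, Sirt5, Sirt6, Sirt7, Nampt, Nmnat2, Parp1 and Nnt. Every probe set whose single gene symbol was one of these 10 names was used. That gave 11 probe sets for 7 genes, among 22626 probe sets tested and 12393 genes named in all. Sirt1, Sirt2, Sirt3 and Sirt7 had 1 probe set each, Nampt and Nnt had 2 each, and Parp1 had 3. No probe set carried Sirt5, Sirt6 or Nmnat2 as its single symbol, and these 3 genes were not analysed here. No filter on low values was applied, so all 11 probe sets entered the tests.

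Both genotypes were C57/B6 males aged 3 months, with 4 biological replicates each, and the RNA of each animal went onto its own single-channel Affymetrix array. The sources used here do not say which part of Sirt1 was deleted, which promoter drove the deletion or which brain cells kept the gene. Nor did the labels name the C57/B6 substrain.

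SIRT1 and its relatives remove acetyl and other acyl groups from lysines of proteins, and each reaction consumes a molecule of NAD and releases nicotinamide. NAMPT turns nicotinamide into nicotinamide mononucleotide, the rate-limiting step of salvage in mammals, and the NMNAT enzymes complete NAD from it. PARP1 uses NAD to build poly(ADP-ribose) chains at DNA breaks and so draws on the same pool. NNT, in the inner mitochondrial membrane, moves hydride between NADH and NADP and is known to be defective in the C57BL/6J substrain. In the brain SIRT2 is known as an abundant protein of myelin-forming oligodendrocytes, SIRT3 as the main mitochondrial deacetylase, and SIRT7 as a nucleolar and chromatin-bound member.

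The sequence just upstream of the start site is shown for 3 members. Sirt1 is the deleted gene, and Nampt and Parp1 are an NAD-making and an NAD-using enzyme with a probe set on which the genotypes did not overlap, Parp1 only without the array BSKO 2. Each is the 250 bases before the start site on the gene's own strand, from RefSeq on GRCm38.p6. Capitals mark CACGTG, the E-box to which the clock proteins CLOCK and BMAL1 bind, searched on both strands (it reads the same on each). The stretches are those of Sirt1 (chr10:63339036-63339285, minus strand), Nampt (chr12:32820085-32820334, plus strand) and Parp1 (chr1:180568641-180568890, plus strand).
Sirt1: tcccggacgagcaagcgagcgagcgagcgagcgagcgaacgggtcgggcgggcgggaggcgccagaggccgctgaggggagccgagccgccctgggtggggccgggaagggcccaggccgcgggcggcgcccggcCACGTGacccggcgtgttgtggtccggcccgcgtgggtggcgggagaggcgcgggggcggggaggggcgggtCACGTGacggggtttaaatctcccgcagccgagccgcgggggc
Nampt: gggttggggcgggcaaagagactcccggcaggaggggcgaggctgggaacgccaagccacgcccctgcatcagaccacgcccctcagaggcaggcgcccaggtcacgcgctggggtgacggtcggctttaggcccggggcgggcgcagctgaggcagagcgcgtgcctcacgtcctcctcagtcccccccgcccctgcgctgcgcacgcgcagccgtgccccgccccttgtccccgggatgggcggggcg
Parp1: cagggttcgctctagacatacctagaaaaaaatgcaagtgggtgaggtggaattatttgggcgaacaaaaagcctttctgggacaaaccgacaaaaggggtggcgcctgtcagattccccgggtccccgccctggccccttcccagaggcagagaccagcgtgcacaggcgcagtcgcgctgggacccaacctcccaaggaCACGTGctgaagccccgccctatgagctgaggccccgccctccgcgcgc
The Sirt1 stretch holds the motif 2 times, starting 115 and 43 bases before the start site, and the Parp1 stretch holds it once, 49 bases before. Of the 9 members with a window in the RefSeq table, Sirt1 and Parp1 were the only 2 with a match. Across all 32851 windows of the same length 6.02% had one. The GC box GGGCGG, on either strand, occurred in windows of 8 of the 9 members and in 32.7% of all windows. No match of one motif overlapped a match of the other. A match describes these letters and no more, and the lack of an E-box in the Nampt window says nothing about other parts of that gene.

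The deposited values are on a log2 scale and centred on the median of each probe set, so a value of 0 is the middle of the 8 arrays. They hold no level of expression, and the members could not be ranked by abundance, nor the tissue checked through the level of its markers. One array stood apart. The SD over all probe sets was 0.83 on BSKO 2, 0.22 to 0.31 on BSKO 1, 3 and 4, and 0.15 to 0.22 in WT. The 5' minus 3' difference of control probe sets was taken on centred values. It places an array against the middle of the 8 arrays and is no 5' to 3' ratio. For beta-actin it was -2.44 on BSKO 2, between -0.10 and 0.49 on the other BSKO arrays, and between -0.093 and 0.11 in WT. For Gapdh it was -2.43 on BSKO 2, -0.075 to 0.0046 on the other BSKO arrays, and -0.0019 to 0.095 in WT. Differences are therefore given with and without BSKO 2.

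None of the 11 member probe sets passed an adjusted p of 0.05 in either fit. With all 8 arrays 5 were higher and 6 lower in BSKO, and adjusted p ranged from 0.539 to 0.908 (limma with Benjamini-Hochberg adjustment over all 22626 probe sets). In that fit 0.0309% of all probe sets were called. Without BSKO 2, 3 were higher and 8 lower, and the lowest adjusted p was 0.135, where 1.63% of all probe sets were called. At an unadjusted limma p under 0.05 the members numbered 0 with 8 arrays (10.8% of all probe sets) and 4 without BSKO 2 (36.4% of the 11, against 19.8% of all). These 4 were both Nampt probe sets, 1 of Parp1 and 1 of Nnt, all lower in BSKO, as were 10.1% of all probe sets at that p. The same 4 were those whose genotypes did not overlap without BSKO 2, where 19.5% of all probe sets did not overlap and 10.3% did so with BSKO lower. With 8 arrays 1 of the 11 did not overlap (9.09%, against 12.3% of all), with BSKO lower as in 6.66% of all. In whole-brain RNA, fewer cells of a type and less RNA per cell cannot be told apart.

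**Figure D1:**
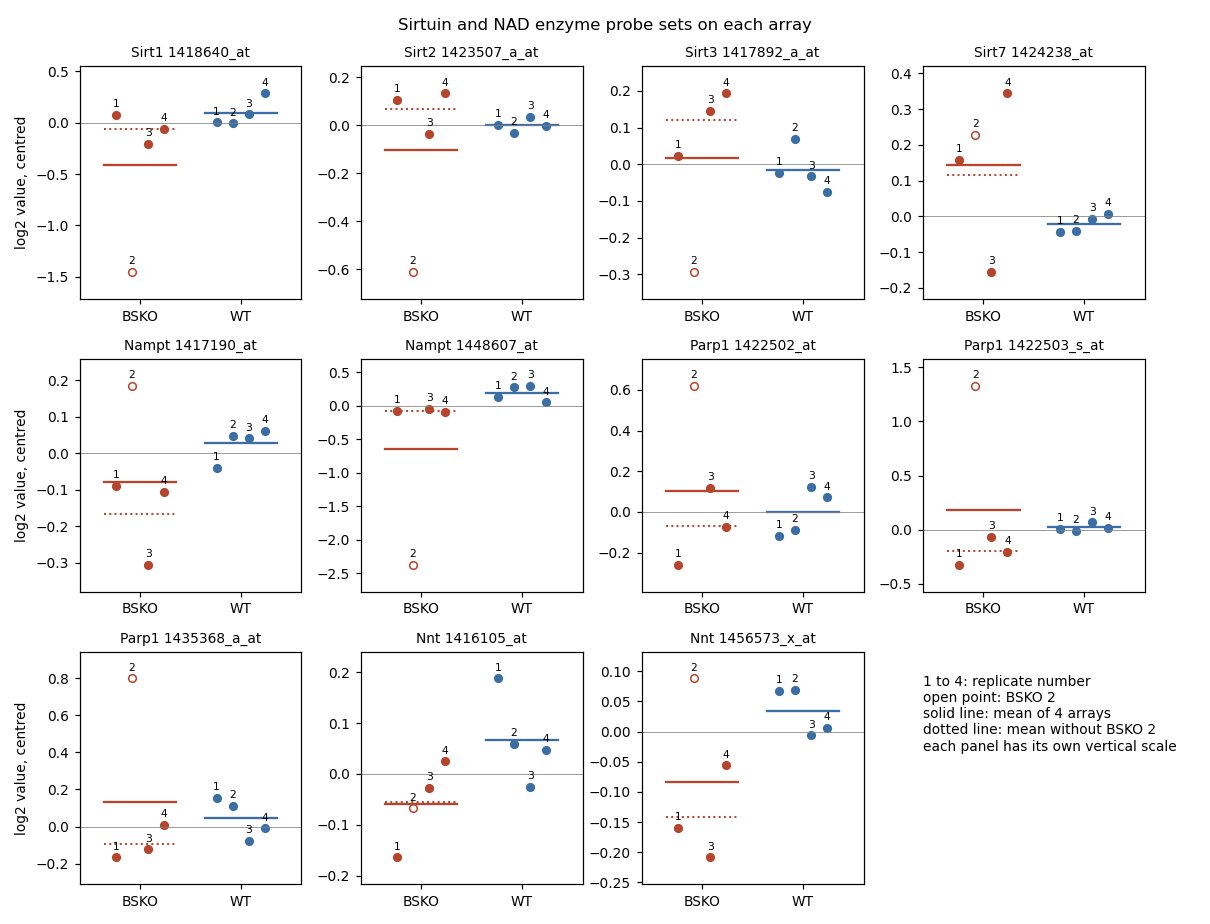
The log2 value of each of the 11 member probe sets on every array, BSKO at the left and WT at the right of each panel, numbered by replicate, with BSKO 2 as an open point. Solid lines are means of 4 arrays and dotted lines the BSKO mean without BSKO 2. BSKO 2 is the lowest of all 8 arrays in 4 panels and the highest in 5, and the share of all probe sets is not given.

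Sirt1, the deleted gene, was measured by probe set 1418640_at. It read 0.076, -1.46, -0.20 and -0.059 on BSKO 1 to 4, against 0.0041, -0.0041, 0.082 and 0.29 on WT 1 to 4. BSKO 2 was far below the rest, BSKO 3 was the next lowest, and BSKO 1 lay among the WT arrays, so the genotypes overlapped. The difference was -0.50 (SE 0.31, 95% interval -1.22 to 0.21, limma adjusted p = 0.549) with 8 arrays and -0.15 (SE 0.10, interval -0.39 to 0.078, adjusted p = 0.428) without BSKO 2. A two-sided exact permutation test gave p = 0.114 over 70 arrangements and p = 0.257 over 35 without BSKO 2, where the smallest possible p is 0.0286 in both. Within replicates 1 and 2 the difference was -0.69, within replicates 3 and 4 it was -0.32, and within replicates 1 and 2 without BSKO 2 it was 0.076. Which part of the transcript this probe set reads is not stated in the labels, so its signal checks no label.

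Sirt2 and Sirt3 both had their lowest value of the 8 arrays on BSKO 2. Sirt2, a tubulin and histone deacetylase, read 0.11, -0.61, -0.035 and 0.13 on BSKO 1 to 4, against 0.0027, -0.032, 0.036 and -0.0027 on WT 1 to 4 (probe set 1423507_a_at). The WT arrays lay close together, BSKO 1 and BSKO 4 were above all of them, and BSKO 2 and BSKO 3 were below. Its difference was -0.10 (SE 0.17, limma adjusted p = 0.781) with 8 arrays and 0.067 (SE 0.068, interval -0.089 to 0.22, adjusted p = 0.622) without BSKO 2. The 24 probe sets of 11 oligodendrocyte markers had a median of -0.029, -0.21, -0.038 and 0.079 on BSKO 1 to 4 and of -0.0019 to 0.022 in WT, and none of the 11 genes was called in either direction in either fit. Both Sirt2 and this list had their lowest array in BSKO 2 and their highest in BSKO 4, and the part of these cells in the Sirt2 values was not tested.

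Sirt3, the mitochondrial deacetylase, read 0.023, -0.29, 0.14 and 0.19 on BSKO 1 to 4, against -0.023, 0.069, -0.033 and -0.075 on WT 1 to 4 (probe set 1417892_a_at). BSKO 3 and BSKO 4 were above every WT array, BSKO 1 among them and BSKO 2 below them. The difference was 0.032 (SE 0.12, limma adjusted p = 0.908) with 8 arrays and 0.14 (SE 0.072, interval -0.03 to 0.30, adjusted p = 0.334) without BSKO 2. Sirt7, which deacetylates histone H3 and acts on ribosomal gene transcription, was the one sirtuin with BSKO 2 on the high side. Probe set 1424238_at read 0.16, 0.23, -0.16 and 0.34 on BSKO 1 to 4, against -0.043, -0.04, -0.0064 and 0.0064 on WT 1 to 4. BSKO 1, 2 and 4 were above all WT arrays and BSKO 3 was below all of them. Its difference was 0.16 (SE 0.12, limma adjusted p = 0.591) with 8 arrays and 0.14 (SE 0.11, interval -0.12 to 0.40, adjusted p = 0.540) without BSKO 2. Sirt4, a mitochondrial sirtuin of the list of other deacetylases, differed by 0.081 (limma adjusted p = 0.767) and by 0.18 without BSKO 2 (adjusted p = 0.231).

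Nampt, the rate-limiting enzyme of NAD salvage, was the member with the lowest adjusted p in both fits. On probe set 1448607_at it read -0.074, -2.37, -0.049 and -0.096 on BSKO 1 to 4, against 0.14, 0.27, 0.30 and 0.049 on WT 1 to 4. Every BSKO array lay below every WT array, with BSKO 2 more than 2 log2 units under the rest. BSKO 1, 3 and 4 lay in a narrow band just under the WT values. The mean was -0.65 ± 1.15 in BSKO and 0.19 ± 0.12 in WT (SD, n = 4 each), a difference of -0.84 (SE 0.49, interval -1.96 to 0.29, limma adjusted p = 0.539). Without BSKO 2 the BSKO mean was -0.073 ± 0.023 (SD, n = 3) and the difference -0.26 (SE 0.079, interval -0.45 to -0.079), or 1.20-fold lower, with adjusted p = 0.135 by limma.

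The other Nampt probe set, 1417190_at, is listed under the same accession, AW989410, and moved the other way on BSKO 2. It read -0.089, 0.18, -0.31 and -0.11 on BSKO 1 to 4, against -0.04, 0.049, 0.04 and 0.061 on WT 1 to 4. BSKO 1, 3 and 4 were below every WT array and BSKO 2 above every one. Its difference was -0.11 (SE 0.12, limma adjusted p = 0.697) with 8 arrays and -0.19 (SE 0.076, interval -0.37 to -0.018, adjusted p = 0.215) without BSKO 2. Thus the probe sets gave differences of like size on the 7 arrays and disagreed on BSKO 2, by -2.37 against 0.18. As the mean of both, Nampt differed by -0.47 (limma adjusted p = 0.426) with 8 arrays and by -0.23 (adjusted p = 0.108 over all genes) without BSKO 2. Within replicates 3 and 4 the differences were -0.25 on 1448607_at and -0.26 on 1417190_at. Within replicates 1 and 2, without BSKO 2, they were -0.28 and -0.093, each from 1 BSKO array.

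**Figure D2:**
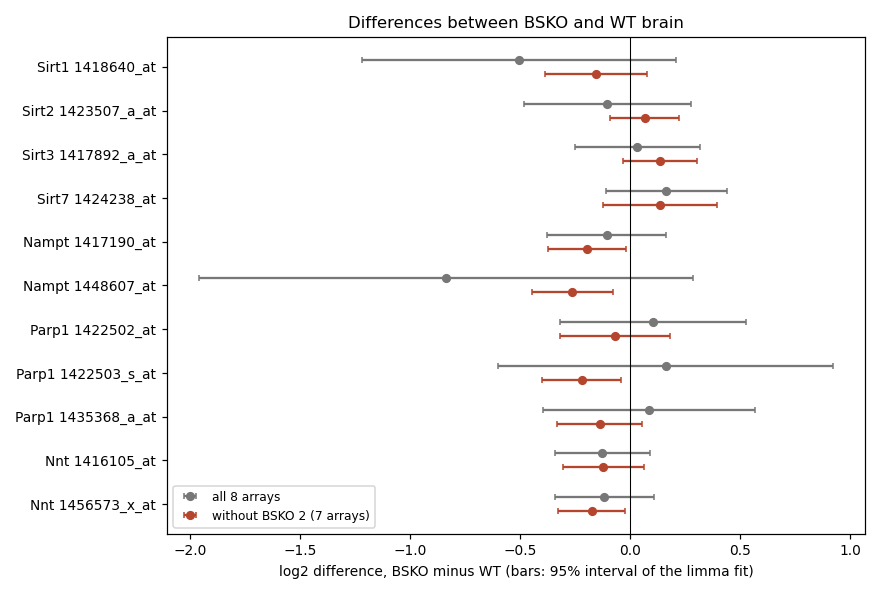
The log2 difference (BSKO minus WT) of each member probe set with its 95% interval from the limma fit, with all 8 arrays (grey) and without BSKO 2 (red). The intervals are narrower without BSKO 2, and 4 of them, those of both Nampt probe sets, Parp1 1422503_s_at and Nnt 1456573_x_at, lie below 0 before adjustment over all probe sets.

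Parp1, the main NAD-consuming enzyme of the DNA damage response, was high on BSKO 2 on each of its 3 probe sets and lower in the mean of the other BSKO arrays. On 1422503_s_at it read -0.32, 1.33, -0.065 and -0.21 on BSKO 1 to 4, against 0.0096, -0.0096, 0.069 and 0.017 on WT 1 to 4. BSKO 1, 3 and 4 were below all WT arrays and BSKO 2 above all of them. Its difference was 0.16 (SE 0.33, limma adjusted p = 0.826) with 8 arrays and -0.22 (SE 0.077, interval -0.40 to -0.042, adjusted p = 0.176), or 1.17-fold lower, without BSKO 2. The suffix of this probe set marks possible hybridisation to other transcripts.

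On Parp1 probe set 1435368_a_at the arrays read -0.17, 0.80, -0.12 and 0.0092 in BSKO 1 to 4, against 0.15, 0.11, -0.076 and -0.0092 in WT 1 to 4. Probe set 1422502_at read -0.26, 0.62, 0.12 and -0.072 on BSKO 1 to 4, against -0.12, -0.088, 0.12 and 0.072 on WT 1 to 4. Apart from BSKO 2, the genotypes overlapped on both. With 8 arrays the differences were 0.085 on 1435368_a_at and 0.10 on 1422502_at. Without BSKO 2 they had the other sign, at -0.14 (limma adjusted p = 0.394) and -0.069 (adjusted p = 0.763). As the mean of its 3 probe sets Parp1 differed by 0.12 with 8 arrays (limma adjusted p = 0.812) and by -0.14 without BSKO 2 (adjusted p = 0.280).

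Nnt, the mitochondrial transhydrogenase, showed small differences. Its BSKO 2 values lay nearest to the WT mean among the members, at -0.13 from it on 1416105_at and 0.054 on 1456573_x_at. Probe set 1416105_at read -0.16, -0.068, -0.027 and 0.025 on BSKO 1 to 4, against 0.19, 0.06, -0.025 and 0.047 on WT 1 to 4. Probe set 1456573_x_at read -0.16, 0.088, -0.21 and -0.056 on BSKO 1 to 4, against 0.067, 0.069, -0.0063 and 0.0063 on WT 1 to 4. The genotypes overlapped on 1416105_at with and without BSKO 2. On 1456573_x_at BSKO 1, 3 and 4 were below every WT array and BSKO 2 above every one. Differences were -0.13 (SE 0.094) on 1416105_at and -0.12 (SE 0.098) on 1456573_x_at with 8 arrays, with limma adjusted p = 0.596 and 0.622. Without BSKO 2 they were -0.12 (interval -0.31 to 0.061, adjusted p = 0.427) and -0.18 (interval -0.33 to -0.021, adjusted p = 0.205). On 1416105_at the difference lay between replicates 1 and 2 (-0.24), and was -0.012 between replicates 3 and 4. The whole range of Nnt over the 8 arrays, from -0.16 to 0.19 on 1416105_at and from -0.21 to 0.088 on 1456573_x_at, left no array standing far from the others.

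The 11 member values had an SD of 1.04 on BSKO 2, where all probe sets had 0.83. Their SD was 0.14 to 0.16 on the other BSKO arrays and 0.091 to 0.10 in WT, below that of all probe sets on each of these 7 arrays. The share of all probe sets that lay lower on BSKO 2 was 0.999% for Nampt 1448607_at, 5.11% for Sirt1, 19.7% for Sirt2 and 30.9% for Sirt3. It was 81.1%, 87.6% and 96.0% for the Parp1 probe sets 1422502_at, 1435368_a_at and 1422503_s_at, and 41.2% to 61.1% for the other members. Within their group, 9 of the 11 had BSKO 2 as the array farthest from the median. Neither for this count nor for the next is the share of all probe sets given, and BSKO 2 had the widest spread over all of them. For 4 of the 11, Sirt2 and the 3 of Parp1, the sign of the difference changed when it was left out. RNA quality, as far as the control probe sets show it, moved with these values, and its part in them was not tested.

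**Figure D3:**
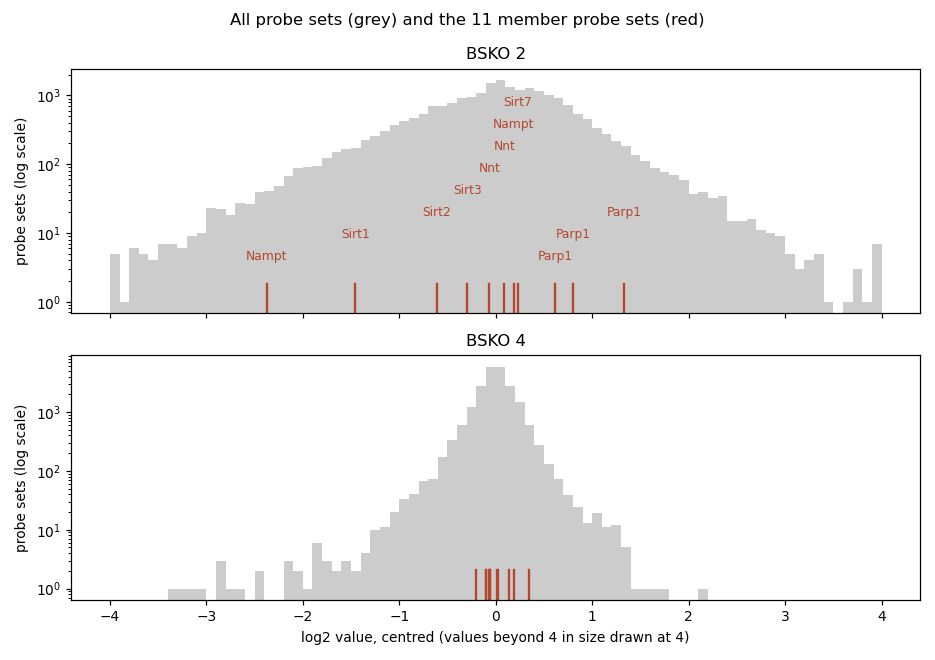
The distribution of all 22626 tested probe sets (grey, counts on a log scale) on BSKO 2 and on BSKO 4, with the 11 member probe sets as red marks and their gene names on BSKO 2. The members run from -2.37 to 1.33 on BSKO 2, and from -0.21 to 0.34 on BSKO 4.

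The pattern of Sirt1 was compared with that of every probe set with 1 symbol over the 7 arrays without BSKO 2. The 5 most alike, by Pearson's r, were Derl1 (1437723_s_at, r = 0.993), Tardbp (1455655_a_at, 0.988), Dffb (1421229_at, 0.988), Psma1 (1436769_at, 0.988) and Tbca (1456205_x_at, 0.986). With BSKO 2 included, r was 0.985 for Tardbp, 0.969 for Dffb and 0.479 for Psma1, and it was -0.646 for Derl1 and -0.668 for Tbca. The 7 arrays share their processing, and the 5 were picked as the highest of all, so these values are a description.

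Other genes of NAD metabolism make, phosphorylate, recycle or consume NAD. Of 54 listed genes 41 were measured, by 63 probe sets, and none was called with 8 arrays. With 8 arrays 23 probe sets were higher and 40 lower in BSKO, and 26 were higher and 37 lower without BSKO 2. The genotypes did not overlap on 1 of the 63 (1.59%, against 12.3% of all) with 8 arrays and on 15 (23.8%, against 19.5%) without BSKO 2. Their probe sets had a median difference of -0.043 over 8 arrays and of -0.038 when BSKO 2 was left out, against -0.10 and -0.14 for the member probe sets and 0.022 and 0.0089 for all probe sets. Without BSKO 2, 1 of the 63 probe sets was called (1.59%, against 1.63% of all probe sets). Its gene was Tdo2, which opens the kynurenine route from tryptophan to NAD. On probe set 1419093_at it read -0.71, 0.58, -0.75 and -0.75 on BSKO 1 to 4, against 0.52, 0.55, 0.0062 and -0.0062 on WT 1 to 4. Without BSKO 2 it fell by 1.00 on the log2 scale (SE 0.16, limma adjusted p = 0.0296). BSKO 2 stood above every WT array, and with it the difference was -0.67 (limma adjusted p = 0.483). The call without BSKO 2 was also lost when BSKO 3, BSKO 4 or any 1 WT array was left out too, at -1.09 to -0.91 with adjusted p of 0.0505 to 0.0957 by limma. It was lost with the replicate block as well (-0.91, adjusted p = 0.108) and with trend and robust settings (adjusted p = 0.0540).

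Proteins that bind or regulate SIRT1 were measured by 12 probe sets of 8 genes, and none was called in either fit. The list median was -0.046 over 8 arrays and -0.003 when BSKO 2 was left out. The smallest p with 8 arrays belonged to Usp22, Dyrk1a and Senp1. Usp22 is a deubiquitinase known to stabilise SIRT1, and Dyrk1a a kinase that phosphorylates it. Dyrk1a (1426226_at) read -0.24, -3.22, -0.034 and -0.14 on BSKO 1 to 4, against 0.034, 0.30, 0.44 and 0.34 on WT 1 to 4. All BSKO arrays were lower than all WT arrays, as on 6.66% of all probe sets, and BSKO 2 was far below the rest. Its difference was -1.19 (SE 0.66, limma adjusted p = 0.525), and -0.42 (SE 0.11, adjusted p = 0.0966) without BSKO 2. The genotypes overlapped in both fits on Dyrk1a 1428299_at (-0.096, and -0.011 without BSKO 2) and 1451977_at (-0.32 and -0.12). Usp22 (1456043_at) differed by -0.70 and by -0.38 without BSKO 2, with overlapping genotypes. Senp1 (1424330_at), a SUMO protease that acts on SIRT1, differed by 0.53 with 2.48 on BSKO 2 and by -0.11 without it. Senp1 probe set 1451319_at differed by 0.19, with -0.52 on BSKO 2. Without that array it went the other way from 1424330_at, at 0.41 (limma adjusted p = 0.225).

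The other deacetylases, 9 genes of the HDAC classes with Sirt4 counted among them, on 11 probe sets, had median differences of 0.11 (8 arrays) and 0.10 (BSKO 2 left out), and none was called in either fit. Hdac5, a class II enzyme that shuttles between nucleus and cytoplasm in neurons, had the smallest p of the list. On probe set 1415743_at it read 0.0073, 0.10, 0.22 and 0.26 on BSKO 1 to 4, against -0.10, -0.0073, -0.12 and -0.23 on WT 1 to 4. Its BSKO arrays were all above its WT arrays by a narrow margin, as for 5.67% of all probe sets. It differed by 0.26 (SE 0.10, limma adjusted p = 0.422) and by 0.28 (SE 0.088, adjusted p = 0.147) without BSKO 2. Hdac6, which like SIRT2 deacetylates tubulin, also had no overlap (difference 0.27, and 0.096 without BSKO 2), while Hdac7 overlapped (0.28 and 0.19).

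**Figure D4:**
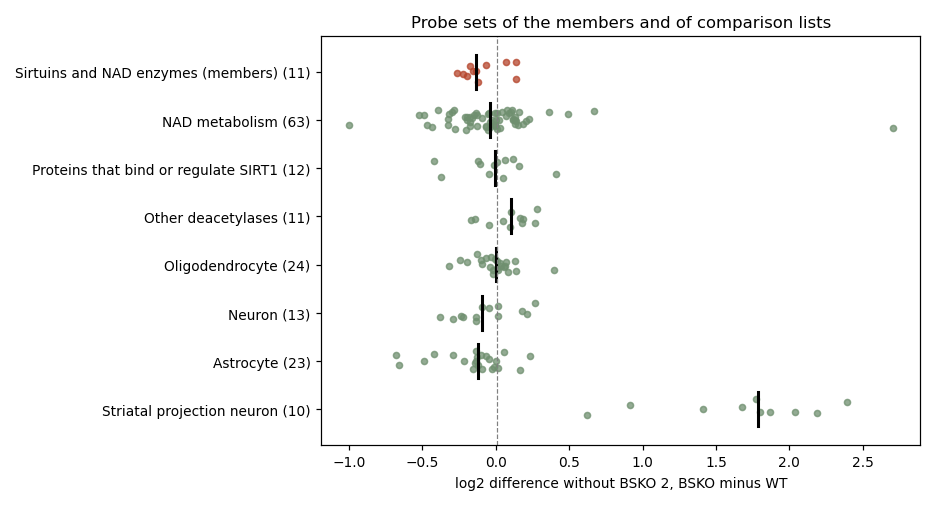
The log2 difference (BSKO minus WT, without BSKO 2) of each probe set of the members, of the comparison lists and of some cell type markers, with the number of probe sets in brackets. Black bars are list medians, and the dashed line is the median of all probe sets, 0.0089. Member probe sets lie between -0.26 and 0.14, while the striatal markers have a median of 1.79.

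Cell type markers also differed between the arrays. The 10 probe sets of 7 striatal projection neuron markers had medians of 0.087, 0.13, 1.14 and 1.16 on BSKO 1 to 4, against -1.87, -1.73, 0.01 and -0.092 on WT 1 to 4. None of the 7 passed over all probe sets in either fit. Within replicates 1 and 2 all 10 were higher on every BSKO than every WT array, and likewise within replicates 3 and 4. The share of all probe sets that did so is not given here. Their median difference was 1.62 with 8 arrays and 1.79 without BSKO 2, against 0.022 and 0.0089 for all probe sets. List medians for neuronal markers were -0.18 to 0.019 in BSKO and -0.00023 to 0.052 in WT. Those for astrocytes were -0.24 to -0.037 in BSKO and 0.024 to 0.11 in WT, those for microglia -0.14 to 0.30 and -0.077 to 0.091, and those for endothelium -0.077 to 0.049 and -0.045 to 0.065. The astrocyte medians did not overlap between genotypes, with BSKO lower. The probe sets of this list differed both ways without BSKO 2, from -0.68 on Gfap 1426508_at to 0.23 on Slc1a2 1451627_a_at. Of 10 astrocyte genes 1 was called without BSKO 2, where 1.63% of all probe sets were called. It was Aldoc, an aldolase, on 1424714_at by -0.49 (limma adjusted p = 0.0441, and -0.49 with adjusted p = 0.153 over 8 arrays). Its other probe set, 1451461_a_at, differed by -0.30 with 8 arrays and by -0.026 without BSKO 2 (limma adjusted p = 0.616 and 0.861). The part of cell makeup in the member values was not tested.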

How the data were processed

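Whole-brain RNA of 4 BSKO and 4 WT mice was measured on Affymetrix Mouse430A_2 arrays. The authors made the deposited log2 values with RMA, per the submitters' processing notes (version not given in the sources used here). For 22689 of 22690 probe sets the 8 values have their median within 1e-05 of 0, so all but 1 were centred on it, which no label records. Control probe sets, 64 in all, were not tested. Of the 22626 others, 20380 had 1 gene symbol in the platform annotation, 691 several and 1555 none or no entry, and 20351 of the 20380 matched RefSeq (GRCm38.p6) by gene number, with no symbol changed. GRCm38.p6 coordinates and sequences are RefSeq's and not the authors'.

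The genotypes were compared in two-sided limma fits without covariates (version 3.58.1, R 4.3.3, lmFit, then eBayes). Adjustment was by Benjamini-Hochberg across the 22626 probe sets, with a threshold of 0.05, and 8 arrays or 7 without BSKO 2. Intervals are 95% limma intervals. The exact permutation test was used for Sirt1. The number of arrays limits the precision. P-values rest on the spread between arrays of 1 animal each. That spread also holds any difference between arrays in RNA quality or processing. Figures were drawn with matplotlib 3.10.9. The text names every member probe set and, from each comparison list, the genes called in either fit or otherwise the 3 with the smallest p. Members and lists were chosen with earlier results of these data known. Alternatives were other normalization, centring, variance and weight settings, terms for the replicate numbers, leaving out each array, 1 value per gene, no cross-hybridising probe sets and a threshold of 0.10. Same-numbered arrays of the genotypes had deviations that correlated by 0.056 to 0.14 over all probe sets. This was not above 0.1 in each pair, so replicate numbers were not taken as pairs. Across genotypes, every correlation within replicates 1 and 2 or within replicates 3 and 4 was positive (0.031 to 0.165). Every correlation between these sets was negative (-0.147 to -0.037). The main fits hold no term for this split, which was added in an alternative.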

Additional observations from a re-analysis of the deposited data

Results flagged for a closer look

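In 5 of 36 groups of 4 arrays examined, 1 array lay far from the other 3 by Dixon's criterion. In all 5 that array was BSKO 2. The criterion is set for about 1 in 20 by chance, in groups whose arrays spread alike. BSKO 2 had the widest spread over all probe sets (SD 0.83). How many of all probe sets met the criterion is not given here. Some of the groups belong to genes named for their p in these same data. Among the members the outlying values were Nampt 1448607_at, at -2.37, and Parp1 1422503_s_at, at 1.33. Among the named genes of the comparison lists they were Tdo2 (1419093_at) at 0.58, Dyrk1a (1426226_at) at -3.22 and Hdac6 (1448928_at) at 0.74. Every one of these 5 is given above with and without that array.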

How the results depend on the processing

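No member probe set was called with all 8 arrays under any alternative run, and none without BSKO 2 except with array weights. There 2 of the 11 (18.2%, against 13.3% of all probe sets) were called, Nampt 1448607_at (-0.29) and Parp1 1422503_s_at (-0.23), in a fit where BSKO 4 had a weight of 2.89 and BSKO 1 and BSKO 3 had 0.491 and 0.302. Leaving out single arrays gave 0 member calls throughout. Sirt1 kept its direction with 8 arrays in each alternative, from -0.67 to -0.15 over left-out arrays, and without BSKO 2 it was 0.076 within replicates 1 and 2. With 8 arrays Sirt2 was 0.027 after quantile normalization, 0.11 with array weights and 0.033 within replicates 3 and 4, and -0.18 to 0.067 over left-out arrays. Parp1 1422502_at was -0.059, -0.073 and -0.075 in these 3 settings and -0.069 to 0.22 over left-out arrays (-0.16 to 0.026 when BSKO 2 was out as well). Parp1 1422503_s_at was -0.14, -0.22 and -0.18, with -0.22 to 0.33 over left-out arrays, and Parp1 1435368_a_at -0.095, -0.072 and -0.014, with -0.14 to 0.18. Sirt3 was -0.16 within replicates 1 and 2 (-0.00026 without BSKO 2) and -0.027 to 0.14 over left-out arrays, and Nampt 1417190_at was 0.044 within replicates 1 and 2. Senp1 was -0.26 with array weights, -0.17 within replicates 3 and 4 and -0.11 to 0.85 over left-out arrays, and without BSKO 2 it was 0.048 within replicates 1 and 2 and -0.21 to 0.041 over left-out arrays. The cause of these turns was not tested.

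Of the comparison list genes (41, 8 and 9 measured in the 3 lists), 0 were called with 8 arrays and 7 with array weights. With those weights 11.6% of all probe sets were called. Over left-out arrays the count was 0 to 1. Without BSKO 2 the count of 1 became 11 with array weights, where 13.3% of all probe sets were called. It was 5 with a term that sets replicates 1 and 2 apart from 3 and 4 (3.29% of all). It was 2 within replicates 3 and 4 (2.62% of all) and 2 at an adjusted p under 0.10 (5% of all). It was 0 with trend and robust settings (1.45% of all), with 1 value per gene (2.15% of all genes) and with the replicate block (0% of all). Over left-out arrays it was 0 to 4. Across all probe sets the 7 calls with 8 arrays became 678 after quantile normalization, 2617 with array weights and 108 with trend and robust settings. The 369 without BSKO 2 became 3005 with array weights, 744 with that term and 19 to 1069 over left-out arrays. With the replicate number as a block, 0 member probe sets were called with 8 arrays and 0 without BSKO 2, and 0 of all probe sets. The best match of BSKO 2 was WT 1 (r = 0.088) and that of BSKO 4 was WT 3 (0.165), so not every array correlated best with its own number. The planned filter on dim probe sets could not be run on centred values, which hold no level.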

Other observations

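Some genes of NAD metabolism, picked here after their values were seen, varied between replicates 1 and 2 and replicates 3 and 4 as the striatal markers did. Ido1 (1420437_at), the inducible enzyme that opens the kynurenine route, read 0.0042, -2.34, 1.38 and 1.53 on BSKO 1 to 4, against -3.64, -3.50, 0.21 and -0.0042 on WT 1 to 4. Its mean was higher in BSKO within replicates 1 and 2 and within replicates 3 and 4, and the difference was 1.88 (SE 1.17, limma adjusted p = 0.551) with 8 arrays and 2.71 (SE 1.05, adjusted p = 0.211) without BSKO 2. Nmnat3 (1424899_at), the mitochondrial NAD-completing enzyme, read 0.091, -0.39, 0.49 and 0.51 on BSKO 1 to 4, against -0.73, -0.49, -0.0086 and 0.0086 on WT 1 to 4. Its difference was 0.48 (SE 0.25, limma adjusted p = 0.510) with 8 arrays and 0.67 (SE 0.20, adjusted p = 0.135) without BSKO 2. Nmnat1, the nuclear form, differed by 0.01 on 1429819_at and by 0.16 on 1425773_s_at with 8 arrays. Without BSKO 2 it differed by 0.092 and by 0.22, with adjusted p of 0.549 and 0.332 by limma.

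Qprt, which makes the nicotinic acid mononucleotide of the kynurenine route, differed by -0.48 on 1418837_at and by -0.15 on 1418836_at with 8 arrays (limma adjusted p = 0.405 and 0.773), with 0.69 on BSKO 2 on the second of them. Without BSKO 2 the differences were -0.52 and -0.39 (limma adjusted p = 0.168 and 0.141). Nnmt, which methylates nicotinamide and removes it from salvage, differed on 1432517_a_at by -0.37 with 8 arrays and by -0.49 without BSKO 2 (limma adjusted p = 0.498 and 0.155). The second Tdo2 probe set, 1449337_at, differed by -0.39 with 8 arrays and by -0.47 without BSKO 2 (limma adjusted p = 0.455 and 0.171), less than the called one in both fits.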
